A study of Mus musculus with 91 samples.

Results

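The diet effect in mesenteric adipose tissue (MAT), the fat that lies along the vessels of the gut, was measured in 5 pairs of pools, each a high-fat diet (HFD) pool set against the normal diet (ND) pool of the same week. All 10 MAT arrays were taken, of 91 arrays in the series. The mice were male C57BL/6J, an inbred strain, and the HFD was the purified AIN-76 diet enriched with fat and cholesterol, while the ND was AIN-76 itself. RNA was collected after 2, 4, 8, 20 and 24 weeks of diet, at 7, 9, 13, 25 and 29 weeks of age, after an overnight fast. For each diet and week, RNA of many mice was combined into 1 pool and hybridized to 1 Illumina MouseWG-6 v2 array with 45281 probes. Single mice can therefore not be seen, and the spread used in every test below is that between weeks, which differ in age and diet length as well. Epididymal adipose tissue (EAT) of the same weeks, with 3 pools for each diet and week on 30 arrays, was used only for comparison. Whether the same mice gave both depots is not given in the sources used here.

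White fat takes up fatty acids from food and also makes them from glucose. In that pathway cytosolic acetyl-CoA is lengthened by fatty acid synthase with NADPH as the reducing agent, then desaturated, elongated and joined to glycerol as triglyceride. A diet rich in fat is known to lower the genes of this pathway in liver and fat. Mesenteric fat drains to the portal vein and holds the lymph nodes of the gut, and it lies against intestine and pancreas, so a dissection may carry other tissues with it. In bulk samples, fewer cells of a type and less RNA per cell cannot be told apart.

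Levels below are quantile normalized log2 intensities of 1 probe, in the order of 2, 4, 8, 20 and 24 weeks, and differences are HFD minus ND on the log2 scale. A level of 1 probe was not compared with that of another probe. The arrays differed in background. The 5th percentile of the intensities, a measure of background, was 81.3 on the HFD array and 108 on the ND array at 2 weeks. It was 122 on the HFD array and 117 on the ND array at 24 weeks, and between 81.5 and 84.8 on the 6 arrays of the other weeks. Of the probes, 35.8% to 45.2% of an array were detected, that is, had a detection p-value under 0.05. Of 722 probes over 2-fold higher on HFD at 2 weeks, 539 (74.7%) were also over 2-fold lower on the 24-week arrays than on those of 4 to 20 weeks, against 2.65% of all probes. Of 14788 probes detected on all 7 low-background arrays, 298 were detected on none of the 3 high-background arrays (ND of 2 weeks and both of 24 weeks). Adgre1, a macrophage surface marker, had levels of 10.59, 9.59, 9.98, 10.60 and 7.21 on HFD, against 7.88, 9.69, 9.79, 9.92 and 7.31 on ND. The counts of gene lists are therefore also given without the 2-week pair where they moved by over 1.5 times.

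No probe passed a Benjamini-Hochberg adjusted p of 0.05 for HFD against ND over the 5 weeks (0% of 45281, limma, smallest adjusted p = 0.812). Without 2 weeks there was also none (0%, limma, smallest adjusted p = 0.865). At an unadjusted p under 0.05, 1351 probes (2.98%) were higher and 1334 (2.95%) lower on HFD. Without 2 weeks these were 1386 (3.06%) higher and 1177 (2.6%) lower. The difference had 1 sign at all 5 weeks for 1570 probes (3.47%) that were higher and 1780 (3.93%) that were lower. An exact sign-flip test of 1 value over 5 pairs cannot give a two-sided p under 0.0625. With 1 probe for each of 19057 genes, 688 genes (3.61%) were higher and 758 (3.98%) lower at an unadjusted p under 0.05, and 698 (3.66%) were higher and 814 (4.27%) lower at all 5 weeks. The counts of gene lists below are to be read against these last 4 shares. Among the 10984 genes detected on at least 5 arrays, 9.26% had 1 sign at all weeks, in either direction, against 7.93% of all 19057. Most members of the lists were detected, so that for counts of 1 sign the shares over all genes are somewhat low. Fitted alone, the 20099 probes detected on at least 5 arrays had 760 higher and 758 lower at an unadjusted p under 0.05. The lists were chosen with earlier results of these data known, so that their counts are descriptions. For single genes the mean difference over the weeks is given with its standard error (SE). This SE is the moderated one of limma, in which the spread of a probe between weeks is drawn toward that of all probes. Since the smallest adjusted p of the MAT fit was 0.812, no gene below passed the test.

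The weeks did not repeat one another over the array as a whole. Across all probes, the weekly differences of 4 and 8 weeks correlated at r = -0.47 and those of 8 and 20 weeks at 0.42. The r was 0.35 between 4 and 24 weeks, -0.33 between 8 and 24 weeks, -0.32 between 4 and 20 weeks and -0.07 between 20 and 24 weeks. The r of 2 weeks with 4, 8 and 20 weeks lay between -0.07 and 0.03, and that of 2 with 24 weeks, the pairs that hold the high-background arrays, was 0.22. No 2 weeks share an array, but probes of an array are not independent, so that these are descriptions only. The median difference of the intestinal epithelium markers was 2.73 at 4 weeks and 2.98 at 24 weeks, against -3.66 at 8 weeks and -0.88 at 20 weeks. At 2 weeks that median was 0.09. Apart from 2 weeks, weeks with the same sign of this median correlated above 0 and weeks of opposite sign below 0. For 20 and 24 weeks, of opposite sign, the r was only -0.07. The part of the markers in the correlation was not tested.

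Genes that make fatty acids stood lower on HFD as a group, by amounts that varied widely between weeks. Of 18 measured genes of fatty acid synthesis, all 18 had a mean below 0, 8 were lower at an unadjusted p under 0.05 and 2 were lower at all 5 weeks. None was higher at an unadjusted p under 0.05. Their median difference was -0.57, and -0.46 without 2 weeks, when 4 of the 18 were lower at an unadjusted p under 0.05. All detected genes had a median of 0.0046, with 5% of them below -0.29. Fasn, the fatty acid synthase, had levels of 7.46, 7.69, 8.70, 7.63 and 7.12 on HFD, against 8.45, 8.81, 8.84, 8.74 and 8.85 on ND. Its ND levels lay close together, and among the HFD pools only that of 8 weeks lay among them. The mean difference was -1.02 (SE 0.20), or 2.03-fold lower on HFD (limma, adjusted p = 0.812). Fasn was, with Pygl and Ubd, 1 of only 3 detected genes that kept 1 sign at all 5 weeks with a mean difference over 2-fold. Pygl, the glycogen phosphorylase of liver and other tissues, had levels of 11.29, 11.61, 12.57, 11.76 and 11.03 on HFD, against 12.16, 12.45, 12.59, 12.49 and 13.80 on ND. At 8 weeks its pools were level, and at 24 weeks they lay farthest apart, so that the mean of -1.05 had an SE of 0.36.

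Some genes around Fasn, Elovl6 and Slc25a1 among them, had larger mean differences but changed sign at 8 weeks. Slc25a1, the mitochondrial citrate carrier that exports carbon for the pathway, had levels of 11.13, 10.64, 12.38, 11.23 and 10.79 on HFD, against 12.77, 12.19, 12.36, 11.95 and 14.10 on ND. Elovl6, an elongase that makes stearate from palmitate, averaged 9.34 on HFD and 11.57 on ND, a mean difference of -2.23 (SE 0.62). Me1, which supplies NADPH through malic enzyme, had levels of 8.85, 9.29, 10.87, 10.26 and 7.34 on HFD, against 8.58, 10.99, 11.15, 10.91 and 10.18 on ND. Its 2-week ND level was low for that diet, and without 2 weeks its mean difference was -1.37. Elovl6 and Slc25a1 were higher on HFD at 8 weeks, and so was the median of the whole list, at 0.20. Its medians at 2 and 24 weeks were -0.90 and -1.87, and those of 4 and 20 weeks were -0.23 and -0.50. The 2 most negative medians thus came from the 2 weeks that hold the high-background arrays, and the part of background in them was not tested.

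**Figure D1:**
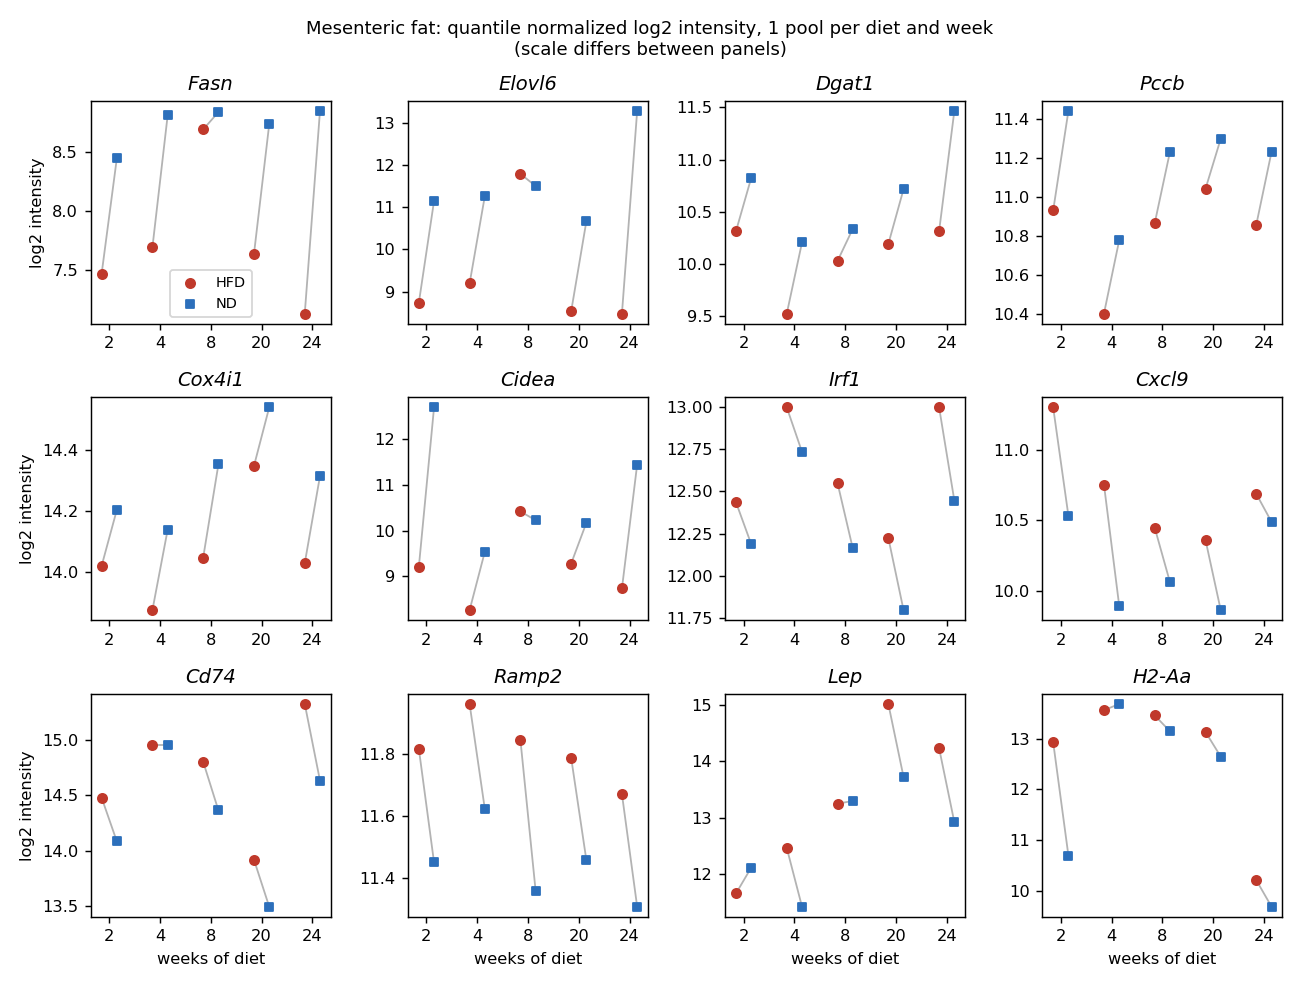
Quantile normalized log2 intensity (y axis) of 12 genes on each MAT array by weeks of diet (x axis), with HFD pools as circles and ND pools as squares joined by a line for each pair. Fasn, Dgat1, Pccb and Cox4i1 were lower and Irf1, Cxcl9 and Ramp2 higher on HFD at all 5 weeks, whereas Elovl6, Cidea, Lep and H2-Aa changed sign at 1 or more weeks.

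The pentose phosphate pathway, whose oxidative part yields NADPH, had a pair of non-oxidative enzymes that were lower at each week. Tkt, a transketolase, had levels of 12.18, 12.11, 12.72, 11.99 and 11.88 on HFD, against 12.77, 13.00, 12.92, 12.66 and 13.36 on ND. No HFD level of Tkt reached an ND level of 12.77 or more, and only the 8-week HFD pool passed the lowest ND pool. The mean difference of Tkt was -0.77 (SE 0.17), and that of Taldo1, a transaldolase of the same branch, was -0.60 (SE 0.14). In the list of NADPH supply 3 of 6 genes were lower at an unadjusted p under 0.05, 2 of 6 were lower at all 5 weeks and none was higher. Its median difference was -0.31, and -0.26 without 2 weeks.

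Most genes of glycolysis, which feeds the pathway, had a mean below 0. Of 15 measured genes 12 had one and 3 had a mean above 0, 7 were lower and 1 higher at an unadjusted p under 0.05, and 5 were lower and 1 higher at all 5 weeks, with a median of -0.31. The gene with a higher level at all 5 weeks was Slc2a1, the glucose transporter GLUT1, which averaged 9.92 on HFD and 9.67 on ND and was higher at each week by 0.14 to 0.32 (mean difference 0.24, SE 0.05). Pkm, a pyruvate kinase, had levels of 11.79, 11.62, 12.10, 11.66 and 12.07 on HFD, against 12.61, 12.35, 12.38, 12.18 and 13.55 on ND. Every HFD pool of Pkm lay below every ND pool (mean difference -0.77, SE 0.16). Ldha, a lactate dehydrogenase subunit, differed by -0.62 (SE 0.16) and was lower at all 5 weeks. Gapdh differed by -0.70 (SE 0.18) and was higher on HFD at 8 weeks only. The medians of the list were -0.48, -0.18, -0.02, -0.05 and -0.65 at the 5 weeks. Without 2 weeks, 6 of the 15 genes were lower at an unadjusted p under 0.05 and the median was -0.27. Markers of skeletal muscle, a tissue rich in glycolytic mRNA, stood high in the 2-week ND pool, and their part was not tested.

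Genes of the last step of triglyceride synthesis and of the supply of glycerol had lower means on HFD. Dgat1, which adds the last fatty acid to diacylglycerol, had levels of 10.31, 9.52, 10.03, 10.19 and 10.31 on HFD, against 10.82, 10.20, 10.34, 10.72 and 11.47 on ND. The groups overlapped in range, but each pair differed, by 0.31 to 1.15 on the log2 scale (mean difference -0.64, SE 0.12, 1.55-fold lower on HFD). Gpd1, which makes glycerol 3-phosphate from a glycolytic intermediate, had levels of 10.16, 9.42, 10.52, 10.40 and 10.32 on HFD, against 11.36, 10.23, 10.72, 10.53 and 11.73 on ND. Its pairs at 2 and 24 weeks differed by more than 1, and those at 8 and 20 weeks by 0.20 or less. Pck1, the enzyme of glyceroneogenesis in fat, differed by -0.32 (SE 0.08). In all, 3 of 10 genes of this list were lower at an unadjusted p under 0.05, the same 3 at all 5 weeks, and none was higher. The medians of the list were -0.75, -0.12, -0.14, -0.05 and -1.05 at the 5 weeks. The 2 most negative came from 2 and 24 weeks, which hold the high-background arrays, and the part of background was not tested. In the list of fatty acid uptake and sensing 1 of 9 genes was lower at an unadjusted p under 0.05 (2 of 9 without 2 weeks), 3 had a mean above 0 and the median was -0.12. Slc27a1, a fatty acid transport protein of fat and muscle, had the lowest mean of these, -0.67 (SE 0.17).

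Mitochondrial genes showed smaller differences with less spread between weeks. Of 14 measured genes of the respiratory chain, 8 were lower at an unadjusted p under 0.05, 8 were lower at all 5 weeks and none was higher, with a median of -0.27 (-0.23 without 2 weeks, when 6 were lower at an unadjusted p under 0.05). Cox4i1, a subunit of cytochrome c oxidase, had levels of 14.02, 13.88, 14.05, 14.35 and 14.03 on HFD, against 14.21, 14.14, 14.35, 14.54 and 14.32 on ND. The HFD pool was lower within each week by 0.19 to 0.31 (mean difference -0.25, SE 0.05). Atp5o, a subunit of ATP synthase, differed by -0.32 (SE 0.08). The breakdown of branched-chain amino acids, which fat uses as a carbon source, had 4 of 16 genes lower at an unadjusted p under 0.05 and 5 of 16 at all 5 weeks, with none higher. Among these, Pccb encodes the beta subunit of propionyl-CoA carboxylase and had levels of 10.93, 10.40, 10.87, 11.04 and 10.86 on HFD, against 11.44, 10.78, 11.23, 11.30 and 11.23 on ND. Its pairs differed by -0.51 to -0.26, with a mean of -0.38 (SE 0.05). Bckdha, of the branched-chain ketoacid dehydrogenase, differed by -0.29 (SE 0.07), and Mccc2 by -0.23 (SE 0.05).

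Cholesterol synthesis was compared because the HFD contained cholesterol. Of 15 measured genes, 5 were lower at an unadjusted p under 0.05, 2 were lower at all 5 weeks and none was higher. The median was -0.28, and without 2 weeks -0.20 with 1 gene still lower at an unadjusted p under 0.05. Dhcr7, which completes cholesterol from its last precursor, had levels of 7.20, 7.51, 7.55, 7.46 and 7.34 on HFD, against 7.84, 7.85, 7.75, 7.64 and 7.39 on ND. Its 5 differences were largest at 2 weeks and close to 0 at 24 weeks (mean difference -0.29, SE 0.09). Cyp51, a demethylase of lanosterol, differed by -0.54 (SE 0.17).

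Most interferon-inducible genes had a higher mean on HFD, by amounts that differed between genes. Of 18 measured genes 17 had a mean above 0, 10 were higher and none lower at an unadjusted p under 0.05, and 7 were higher and none lower at all 5 weeks. The median difference was 0.37, and 0.36 without 2 weeks, when 7 genes were higher at an unadjusted p under 0.05. The promoters of a few genes are shown as the reference holds them. The first promoter of each gene that held the letters marked below was taken, so that the marks are no result. The genes carried the pattern of their lists (Irf1, Cxcl9 and Cxcl10 for interferon-inducible genes, Fasn for fatty acid synthesis). Each runs 5′ to 3′ on the strand of its gene, from 250 bases before to 50 after the annotated start, in RefSeq GRCm38.p6: Irf1 at chr11:53769764-53770063 on the + strand, Cxcl9 at chr5:92328030-92328329 on the - strand, Cxcl10 at chr5:92348840-92349139 on the - strand and Fasn at chr11:120824498-120824797 on the - strand. Capitals mark TTCNNNGAA in Irf1, the letters of a STAT binding motif, GAAANNGAA in Cxcl9 and Cxcl10, the letters of an interferon response element, and CCAAT in Fasn, which the factor NF-Y binds.
Irf1: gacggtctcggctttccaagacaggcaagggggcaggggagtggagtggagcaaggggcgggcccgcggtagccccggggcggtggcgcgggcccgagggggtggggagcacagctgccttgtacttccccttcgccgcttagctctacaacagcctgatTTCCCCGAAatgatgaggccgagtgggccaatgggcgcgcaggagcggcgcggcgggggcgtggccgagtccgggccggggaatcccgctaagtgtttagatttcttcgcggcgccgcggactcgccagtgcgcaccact
Cxcl9: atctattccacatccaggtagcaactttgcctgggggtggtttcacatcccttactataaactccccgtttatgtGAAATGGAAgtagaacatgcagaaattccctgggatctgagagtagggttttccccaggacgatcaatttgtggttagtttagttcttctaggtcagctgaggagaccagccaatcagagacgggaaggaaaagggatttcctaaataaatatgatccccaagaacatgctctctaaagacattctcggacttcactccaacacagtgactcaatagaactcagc
Cxcl10: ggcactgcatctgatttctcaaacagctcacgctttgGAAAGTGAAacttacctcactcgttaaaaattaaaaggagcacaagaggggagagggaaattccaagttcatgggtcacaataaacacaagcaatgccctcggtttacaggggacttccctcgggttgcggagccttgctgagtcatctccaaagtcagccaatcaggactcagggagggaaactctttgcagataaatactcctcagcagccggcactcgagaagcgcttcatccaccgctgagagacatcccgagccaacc
Fasn: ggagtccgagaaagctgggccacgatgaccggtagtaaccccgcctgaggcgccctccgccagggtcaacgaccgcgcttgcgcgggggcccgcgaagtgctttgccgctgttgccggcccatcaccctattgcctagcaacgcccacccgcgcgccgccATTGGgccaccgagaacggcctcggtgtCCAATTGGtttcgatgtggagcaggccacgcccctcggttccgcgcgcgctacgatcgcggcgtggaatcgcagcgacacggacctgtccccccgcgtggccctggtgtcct
Searched on both strands, GAAANNGAA occurred in 8 of 15 interferon-inducible genes with a promoter in the table, against 9.76% of 27025 genes, and in 8.56% of all 32851 promoters of the same length. TTCNNNGAA occurred in 3 of the 15, against 9.55% of genes and 8.30% of promoters. CCAAT occurred in 11 of 15 genes of fatty acid synthesis with a promoter in the table, against 41.1% of genes and 37.4% of promoters, and 1 of these 15 held GAAANNGAA. A match is a run of letters in this window and was not tested as a binding site.

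Irf1, a transcription factor of the interferon-gamma response, had levels of 12.44, 13.00, 12.55, 12.22 and 13.00 on HFD, against 12.19, 12.73, 12.16, 11.80 and 12.45 on ND. Both diets moved together from week to week, and within each week the HFD pool was higher by 0.25 to 0.55 (mean difference 0.37, SE 0.06, adjusted p = 0.812). The 4 other probes of Irf1 had means of 0.03 to 0.26 and were higher on HFD at 3 or 4 of the 5 weeks. Cxcl9, a chemokine that draws activated T cells, had levels of 11.30, 10.75, 10.45, 10.36 and 10.69 on HFD, against 10.53, 9.90, 10.06, 9.86 and 10.49 on ND (mean difference 0.54, SE 0.10, 1.46-fold higher on HFD). Cxcl10, which binds the same receptor, had levels of 9.73, 8.20, 8.38, 7.65 and 8.70 on HFD, against 8.84, 8.03, 7.62, 7.34 and 8.39 on ND. Its largest differences were at 2 and 8 weeks, and each of the 5 was above 0 (mean difference 0.49, SE 0.12). Psmb8, a subunit of the immunoproteasome that cuts peptides for presentation, differed by 0.46 (SE 0.14), and Ifit3, an antiviral protein, by 0.52 (SE 0.12). Ubd, a ubiquitin-like protein that interferon-gamma induces, had levels of 11.08, 10.09, 9.38, 11.27 and 10.45 on HFD, against 9.88, 9.88, 9.19, 8.84 and 9.25 on ND. It had the highest mean of the list (1.05, SE 0.32), with a difference of 2.43 at 20 weeks and of 0.19 at 8 weeks.

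Genes that present peptides by MHC class II had a median difference above 0 at 4 of the 5 weeks, with values of 0.50, -0.05, 0.19, 0.47 and 0.91. All 10 measured genes had a mean above 0, 8 were higher at an unadjusted p under 0.05 and 2 were higher at all 5 weeks. Without 2 weeks, 4 of the 10 were higher at an unadjusted p under 0.05. Cd74, the invariant chain that guides class II molecules, had levels of 14.48, 14.96, 14.81, 13.92 and 15.33 on HFD, against 14.08, 14.96, 14.37, 13.49 and 14.63 on ND. At 4 weeks the pools did not differ, and at the other weeks HFD was higher (mean difference 0.39, SE 0.10). Ciita, the activator of class II transcription, differed by 0.42 (SE 0.15) and was lower on HFD at 4 weeks. H2-Aa, a class II alpha chain, had levels of 12.93, 13.56, 13.46, 13.13 and 10.22 on HFD, against 10.70, 13.68, 13.14, 12.65 and 9.70 on ND. It stood low on the 3 arrays with high background, and its mean was 0.68, and 0.30 without 2 weeks. The part of the background in that move was not tested.

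Markers of lymphocytes and lymph nodes followed the same weeks. Of 11 T cell markers 4, of 8 B cell markers 4 and of 6 lymph node stroma markers 3 were higher at an unadjusted p under 0.05, and none of the 3 lists had a lower one. Without 2 weeks these were 2, 1 and 1. Cd79b, a chain of the B cell receptor, had levels of 12.36, 12.86, 11.86, 10.78 and 13.27 on HFD, against 11.76, 12.93, 11.77, 10.08 and 11.79 on ND. Ccl21a, a chemokine that lymph node stroma makes to draw lymphocytes in, had levels of 13.57, 13.94, 14.02, 12.77 and 14.19 on HFD, against 13.32, 14.13, 13.20, 12.03 and 13.78 on ND. For Cd79b and Ccl21a, as for Cd74, 4 weeks was the week without a higher HFD level. At 4 weeks the medians were -0.17 for T cells, -0.08 for B cells, -0.39 for lymph node stroma and -0.05 for MHC class II. At 20 weeks they were 0.62, 0.52, 0.43 and 0.47, in the same order. Glycam1, a mucin of the vessels through which lymphocytes enter a node, averaged 10.69 on HFD and 9.85 on ND (mean difference 0.85, SE 0.30). All 6 lymph node stroma markers were detected on 9 of the 10 arrays and 5 on the ND array of 20 weeks, and their part in the MHC class II and lymphocyte values was not tested. Interferon-inducible genes had a median of 0.24 at 4 weeks. Macrophage markers (-0.08) and the list of cytokines and Toll-like receptors (-0.05) also had a median below 0 at 4 weeks only.

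**Figure D2:**
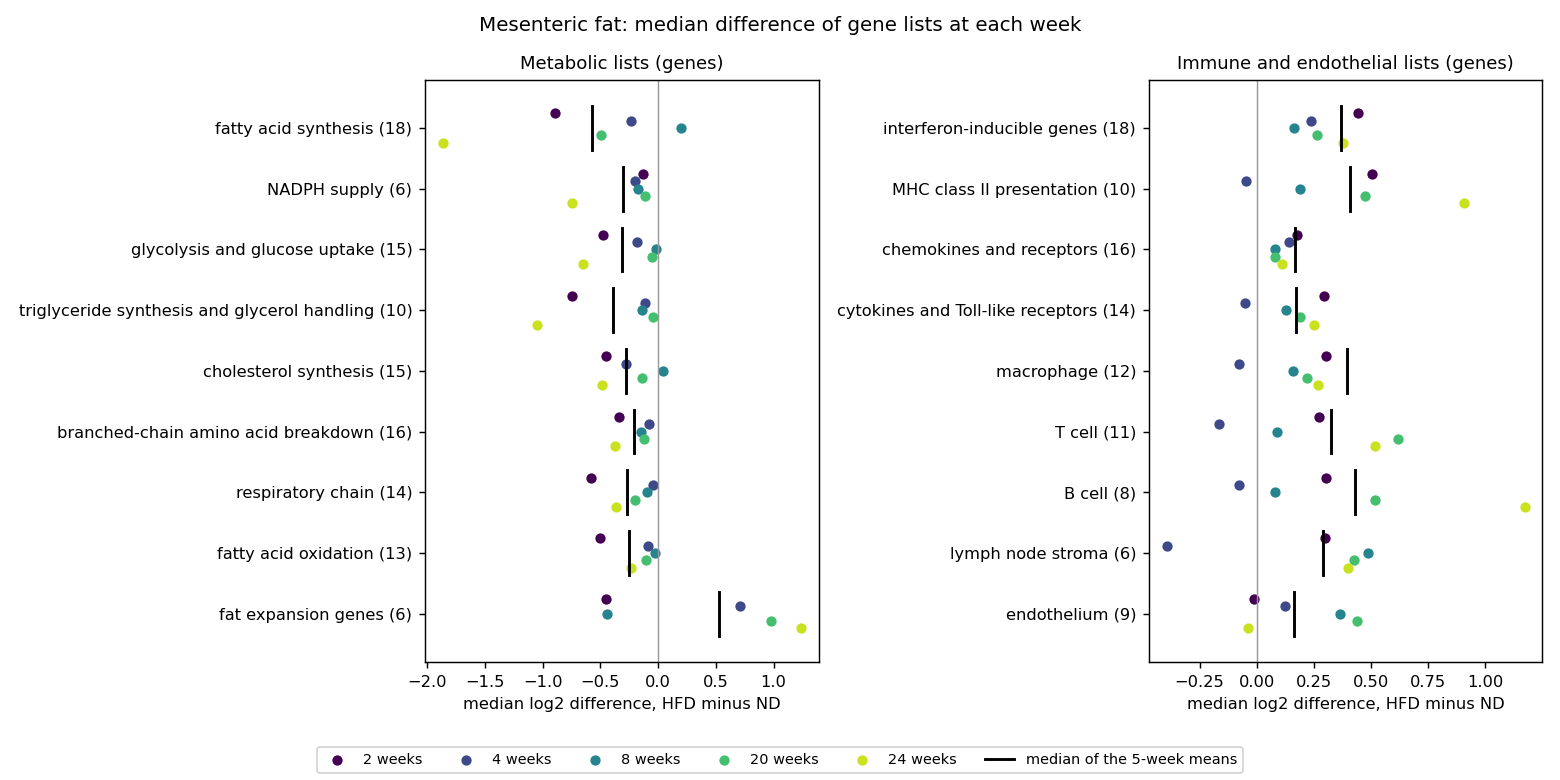
Median log2 difference, HFD minus ND (x axis), of 18 gene lists (rows, with the number of genes measured) at each week (points) and the median of the 5-week means of their genes (black bar). Fatty acid synthesis ran from -1.87 at 24 weeks to 0.20 at 8 weeks. The MHC class II, T cell, B cell, lymph node stroma, macrophage, and cytokine and Toll-like receptor lists were below 0 at 4 weeks only.

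Of 12 macrophage markers, 10 had a mean above 0. Lyz2, lysozyme of macrophages and neutrophils, had levels of 13.94, 14.21, 13.83, 13.43 and 14.15 on HFD, against 13.76, 13.67, 13.36, 13.23 and 13.23 on ND. It was higher at each week (mean difference 0.46, SE 0.11) and was 1 of 4 among these markers that were higher at an unadjusted p under 0.05, with none lower. The median of the 12 was 0.40, and 0.17 without 2 weeks. Adgre1 and Mpeg1 stood low on the 3 high-background arrays, and the part of the background in that move was not tested. Tlr2, a receptor for bacterial lipoproteins, differed by 0.26 (SE 0.06) and was higher at all 5 weeks. In the list of cytokines and Toll-like receptors 5 of 14, and in that of chemokines and their receptors 3 of 16, were higher at an unadjusted p under 0.05, with none lower. Without 2 weeks these were 2 of 14 and 1 of 16. The scavenging genes of macrophages that surround dying fat cells were less even, with 1 of 11 higher at an unadjusted p under 0.05 and none at all 5 weeks. Trem2, a lipid receptor of such macrophages, had a mean difference of 0.44 (SE 0.27).

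Of 9 endothelial markers 8 had a mean above 0, 3 were higher and none lower at an unadjusted p under 0.05, and 2 were higher at all 5 weeks. Their median was 0.16, with medians of -0.01, 0.12, 0.37, 0.44 and -0.04 at the 5 weeks. Pecam1, the adhesion molecule CD31, was level at 2 weeks and higher at the others (mean difference 0.30, SE 0.08). The list holds none of the next 5 genes, which were picked for their small p in MAT. Ramp2, the partner that makes a receptor for the vascular peptide adrenomedullin, had levels of 11.82, 11.96, 11.85, 11.79 and 11.67 on HFD, against 11.45, 11.62, 11.36, 11.46 and 11.31 on ND. Each HFD pool of Ramp2 lay above each ND pool (mean difference 0.38, SE 0.05, adjusted p = 0.812). Icam2, an adhesion molecule of endothelium and leukocytes, had levels of 11.79, 11.90, 11.46, 10.94 and 11.47 on HFD, against 11.56, 11.53, 11.00, 10.42 and 10.94 on ND (mean difference 0.42, SE 0.06). Fli1, an ETS factor of blood and endothelial cells, differed by 0.42 (SE 0.05). Angpt2, a ligand of the endothelial receptor Tie2, differed by 0.34 (SE 0.05), and Aqp1, a water channel of capillaries, by 0.32 (SE 0.05). The other 2 probes of Aqp1, both detected on all 10 arrays, had means of 0.02 and 0.11 and differences of -0.72 and -0.43 at 2 weeks.

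The 30 genes with the smallest p among those detected on at least 5 arrays and of 1 sign at all 5 weeks were named, 15 in each direction. Their MAT values chose them and are a description. Besides those above, the 15 higher genes were Sirpb1a and Slc11a1, both of myeloid cells, Evi2a, Rnd3, Trim21, an intracellular antibody receptor, Rassf4, Cxcl1, a chemokine for neutrophils, and Hps3, of lysosome-related organelles. Their means ran from 0.28 to 0.54. The 15 lower genes were Pccb, Dgat1, H1f10, a linker histone, Tmem143, Isoc2a, Sephs2, which makes the selenium donor for selenoproteins, Dgcr6, Fkbp4, a partner of Hsp90, Get3, which delivers tail-anchored membrane proteins, Clec16a, Klhl21 and Klhl22, both adaptors of cullin ubiquitin ligases, Polb, of base excision repair, Ascc1 and Clmn. Their means ran from -0.64 to -0.27. H1f10 had the smallest p of all probes, with levels of 7.78, 7.41, 7.67, 7.70 and 7.47 on HFD, against 8.33, 7.81, 8.18, 8.12 and 8.21 on ND, and each HFD pool lay below each ND pool. Of 24 other detected probes for 13 of these genes, 21 had the same sign of the mean but only 8 had it at all 5 weeks, and 1 probe each of Rassf4, Hps3 and Pccb had the opposite sign.

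EAT gave a measure that the choice of these genes did not use. No EAT probe passed the adjusted threshold over the 5 weeks (smallest adjusted p = 0.255). Of all probes, 7.95% had an unadjusted p under 0.05 in either direction, and detected genes had a median EAT difference of -0.026. Of the 15 genes lower in MAT, 15 had a mean below 0 in EAT, 12 at an unadjusted p under 0.05 and 11 at all 5 weeks. Of the 15 genes higher in MAT, 13 had a mean above 0 in EAT, 5 at an unadjusted p under 0.05 and 2 at all 5 weeks. By comparison, of all 561 detected genes lower at all 5 weeks in MAT, 177 were lower at all 5 weeks in EAT. Of the 456 higher ones, 65 were higher at all 5 weeks in EAT. The 2-week EAT arrays carried the same background gap as those of MAT, with a 5th percentile of 89.9 to 92.1 on HFD and 118 to 120 on ND. Without 2 weeks, 14 of the 15 lower genes had a mean below 0 in EAT, 12 at an unadjusted p under 0.05. Of the 15 higher genes, 11 had a mean above 0, 7 at an unadjusted p under 0.05. Among all probes, 10.8% had such a p in either direction. Ascc1, a subunit of a transcription and repair complex, differed by -0.32 in MAT and -0.35 in EAT, and Klhl21 by -0.32 in MAT and -0.40 in EAT.

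The diet effect in MAT minus that in EAT passed the adjusted threshold for no probe (0%, smallest adjusted p = 0.794), and 2703 probes (5.97%) had an unadjusted p under 0.05. Among detected genes, 11 were higher at all 5 weeks in MAT and lower at all 5 weeks in EAT, and 2 were lower in MAT and higher in EAT at all 5 weeks. By comparison, 65 detected genes were higher and 177 lower at all 5 weeks in both depots. These counts, too, lack the share of all detected genes with 1 sign at all 5 weeks in EAT. Ramp2 was the only 1 of the 30 named genes in the first group, with a difference of 0.38 in MAT and -0.25 in EAT, 0.63 apart (95% interval 0.39 to 0.87, adjusted p = 0.794). Dhcr7 was in the second, with -0.29 in MAT and 0.22 in EAT, -0.51 apart (95% interval -0.74 to -0.28, adjusted p = 0.805). The signs that placed Ramp2 and Dhcr7 in these groups come from the same values as their intervals. The intervals of these and the next genes were not adjusted for the choice of genes and are descriptions. Cxcl9 differed by 0.54 in MAT and -0.12 in EAT, 0.66 apart (95% interval 0.35 to 0.97, adjusted p = 0.805), and Ccl21a by 0.41 in MAT and -0.69 in EAT, 1.10 apart (95% interval 0.61 to 1.58, adjusted p = 0.805). Cxcl9 did not stand for its list, as interferon-inducible genes had a median of 0.37 in MAT and 0.32 in EAT. Ubd, of the same list, differed by 1.05 in MAT and 1.73 in EAT. The medians were 0.41 in MAT and 0.34 in EAT for MHC class II, and -0.57 and -0.46 for fatty acid synthesis. They were -0.31 in MAT and -0.07 in EAT for glycolysis, and -0.28 and 0.05 for cholesterol synthesis. Macrophage markers had a median above 0 in both depots, 0.40 in MAT and 0.62 in EAT. Lgals3, a lectin of lipid-laden macrophages, differed by 0.38 in MAT and 1.11 in EAT, -0.73 apart (95% interval -1.17 to -0.29, adjusted p = 0.805), and the list of scavenging macrophage genes had a median of 0.18 in MAT and 0.72 in EAT. The lymphoid medians were 0.32 in MAT and -0.03 in EAT for T cells, and 0.43 in MAT and -0.02 in EAT for B cells. Extracellular matrix genes had a median of 0.0031 in MAT and 0.30 in EAT, and none of the 19 had an unadjusted p under 0.05 in MAT. Their MAT medians were -0.67, 0.19, 0.15, 0.06 and -0.06 at the 5 weeks, and without 2 weeks the median was 0.15 and 3 of the 19 were higher at an unadjusted p under 0.05.

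**Figure D3:**
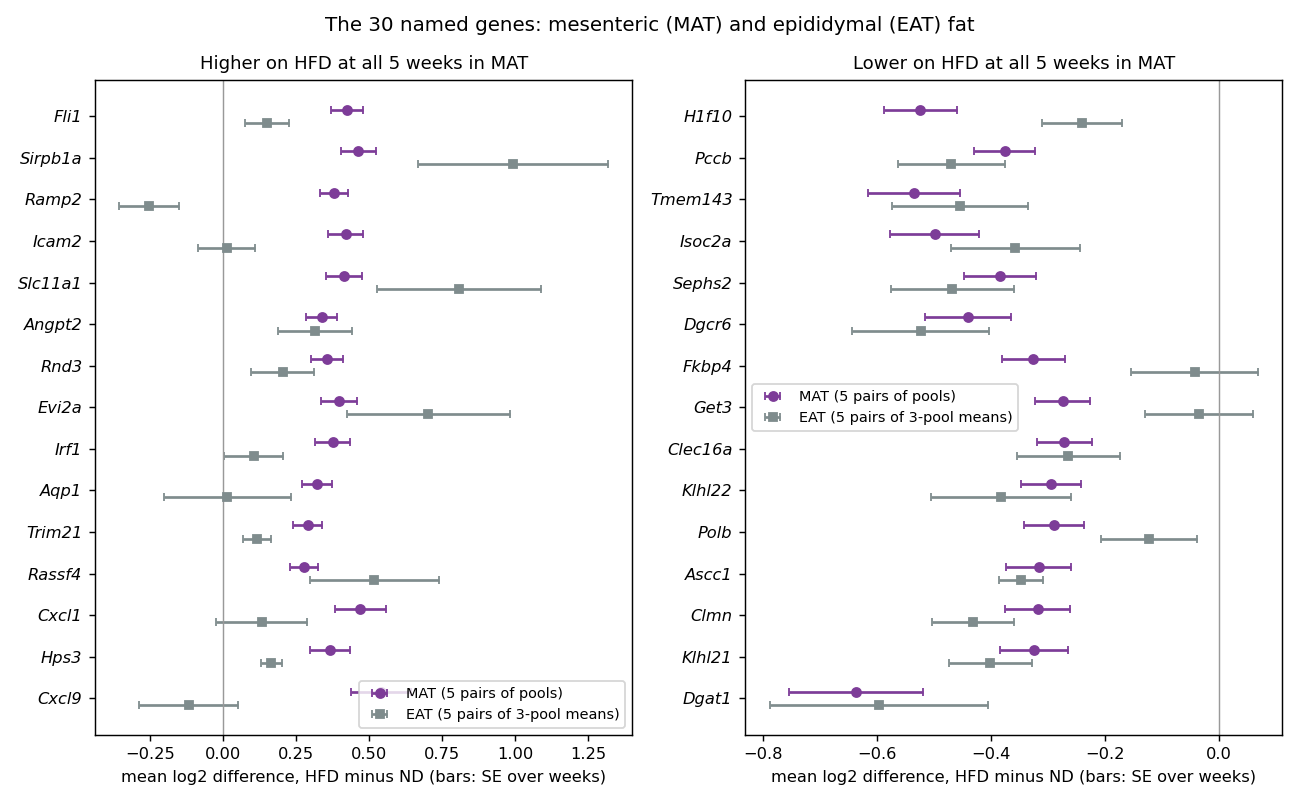
Mean log2 difference, HFD minus ND (x axis), of the 30 named genes (rows) in MAT (circles, 5 pairs of pools) and EAT (squares, 5 pairs of 3-pool means). Bars are 1 moderated SE of the limma fit over the weeks. The lower genes (right) lay below 0 in both depots, while Ramp2 and Cxcl9 (left) had opposite signs in MAT and EAT.

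The adipokine genes were described because leptin, adiponectin and resistin are hormones made by fat. Lep, which encodes leptin, had levels of 11.65, 12.46, 13.25, 15.02 and 14.23 on HFD, against 12.11, 11.42, 13.30, 13.72 and 12.92 on ND. It was over 2-fold higher on HFD at 4, 20 and 24 weeks, lower at 2 weeks and level at 8 weeks, so that the mean of 0.63 (SE 0.29) became 0.90 without 2 weeks, when its unadjusted p was under 0.05. Adipoq, which encodes adiponectin, differed by -0.06 (SE 0.08) and Retn, which encodes resistin, by -0.30 (SE 0.14). Genes that mark expanding fat, Lep among them, had a median of 0.53 over 6 genes, with none past an unadjusted p of 0.05 (2 higher without 2 weeks), and medians of -0.46, 0.71, -0.44, 0.98 and 1.23 at the 5 weeks. Sfrp5, a secreted inhibitor of Wnt signalling from that list, had levels of 7.79, 7.33, 7.88, 10.67 and 10.04 on HFD, against 8.03, 7.26, 8.28, 8.86 and 7.80 on ND. Its difference was above 1 at 20 and 24 weeks and between -0.40 and 0.07 before.

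Markers of the labelled tissue were present, and so were those of its neighbours. Of 13 white adipocyte markers, 11 to 13 were detected on each array, with a median difference of -0.14 and 1 lower at an unadjusted p under 0.05. In all, 12 of the 13 had a mean below 0 and 1, Lep, a mean above 0. The part of these markers in the lower metabolic lists was not tested. Skeletal muscle markers, 10 in all, had a median level of 12.36 on the 2-week ND array, with all 10 detected, and between 6.99 and 7.34 on the other 9 arrays, where 4 to 6 were detected. Pancreatic enzyme genes, 11 in all, had median levels of 15.43 on HFD and 15.40 on ND at 2 weeks, 12.83 on HFD and 12.95 on ND at 4 weeks, 8.99 on HFD and 10.83 on ND at 8 weeks, and between 6.82 and 7.02 later. Intestinal epithelium markers had median levels of 9.15, 9.87, 6.66, 10.84 and 11.06 on HFD, against 7.99, 6.76, 10.67, 12.06 and 7.76 on ND, with 2 to 11 of 13 detected on an array. These 3 lists had no marker, or 1 pancreatic marker, at an unadjusted p under 0.05. Such a p can miss markers that are high in single pools or change sign between weeks. Of the 11 pancreatic markers, 10 had a mean below 0 and 1 above, and 2 were lower at all 5 weeks. The part of the 3 lists in the results was not tested. Brown and beige adipocyte markers had a median difference of -0.52, which was -0.05 without 2 weeks, and a median level of 7.11 on HFD and 10.54 on ND at 2 weeks. Cidea, a lipid droplet protein of brown fat that white fat cells also make, had levels of 9.20, 8.26, 10.42, 9.28 and 8.73 on HFD, against 12.70, 9.54, 10.23, 10.17 and 11.45 on ND. Its mean difference was -1.64 (SE 0.51), and -1.18 without 2 weeks.

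**Figure D4:**
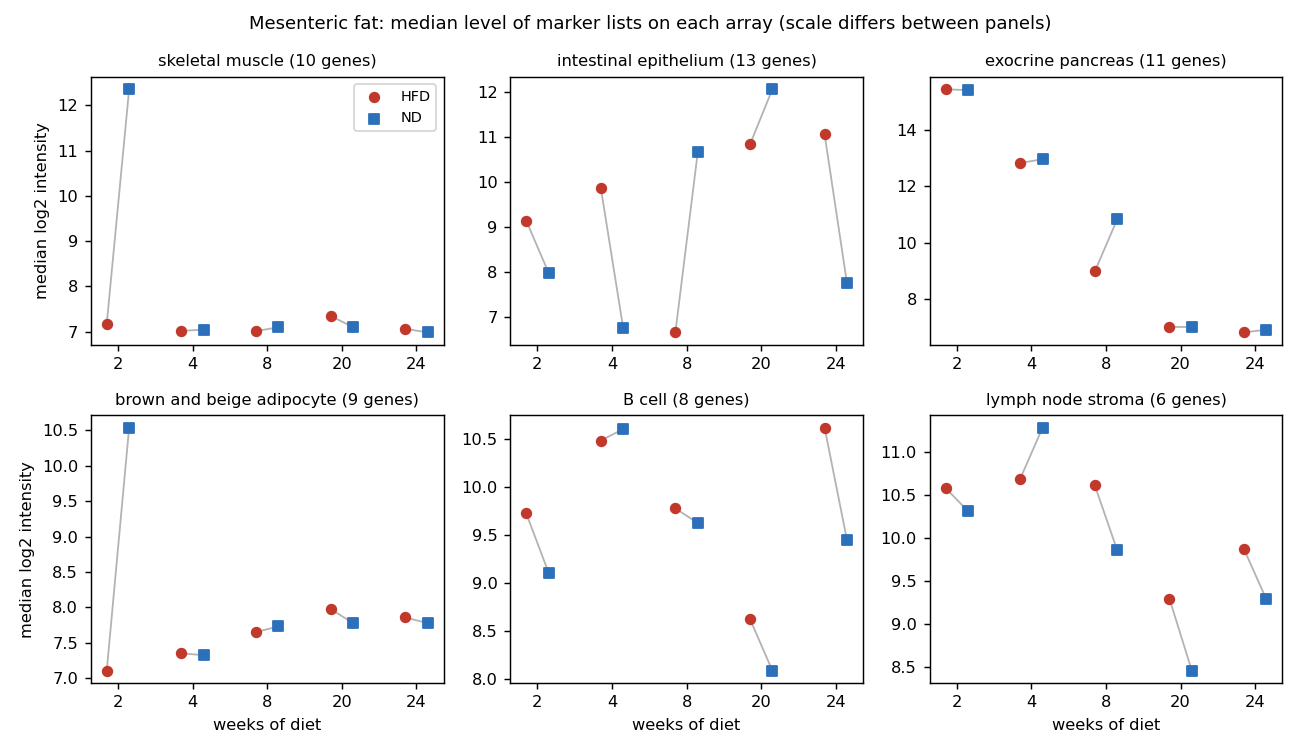
Median log2 intensity (y axis) of 6 marker lists on each MAT array by weeks of diet (x axis), with HFD pools as circles and ND pools as squares. Skeletal muscle markers stood high on the 2-week ND array only, pancreatic markers stood high on both diets at 2 and 4 weeks, and intestinal markers changed sign between diets from week to week.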

How the data were processed

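The 10 MAT pools, 1 for each diet and week, were hybridized to Illumina MouseWG-6 v2 arrays. Probe intensities were extracted by the authors in BeadStudio (version 3.1.3, beside R 2.4.1, according to notes of the submitters on processing). The authors deposited these intensities on a linear scale, without normalization, with a detection p-value for each probe. They also deposited quantile normalized log2 values, which differed by at most 0.00112 from those computed here. The intensities of the 10 MAT arrays, and those of the 30 EAT arrays by themselves, were quantile normalized and log2 transformed in R 4.3.3, with no filter on dim probes. The array annotation gave 1 symbol for 34885 probes, several for 18 and none for 10378. Of the probes with 1 symbol 34852 matched the reference gene table, for 19057 distinct symbols. A gene was represented by its probe of highest mean signal over the 10 arrays.

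HFD was compared with ND with limma 3.58.1 (lmFit and eBayes), with diet and week as terms, and p-values were adjusted over 45281 probes by the Benjamini-Hochberg method, with a threshold of 0.05. The 5 pairs rest on the week of diet given in the labels. For the depot comparison the fit was on 5 weekly values, each the MAT difference minus the EAT difference of 3-pool means. The rule for named genes was the 15 largest differences in each direction that passed, filled, since none did, with the smallest unadjusted p among genes detected on at least 5 arrays and of 1 sign at all 5 weeks. Members of gene lists were added as examples, together with Lep, Adipoq and Retn and the markers of other tissues. The members and lists were chosen with earlier results of these data known. Lists were described by counts and medians, without a set test. The fit was also run on simulated arrays with known changes. The number of pools limits the precision. Chip positions of the arrays are not given in the sources used here, and no chip effect was fitted. The alternatives were another scaling, background correction, the deposited values, a filter on detection, another variance prior, an ordinary paired test, no week block, other probes and leaving out each week. Liver arrays were not used.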

Additional observations from a re-analysis of the deposited data

Results flagged for a closer look

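For each gene list and for 84 of the genes described, the 5 weekly differences (HFD minus ND, log2) were searched for a week that stood apart. Gsta4 and Upk3b were not searched. The limit was a gap to the nearest other week of more than 0.71 of the whole range. This was met by 7 of 42 lists and 7 of 84 genes, and by 8.49% of all detected genes. The limit is set for about 1 in 20 sets of 5 independent normal values, which weekly differences of pools need not be. The flagged genes were near the share of all detected genes, so that they are listed as descriptions.

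Among the lists, week 2 stood apart for skeletal muscle markers (median -4.86, while the highest of the other weeks was 0.19) and for brown and beige adipocyte markers (-0.997). At 4 weeks the lymph node stroma markers (-0.394) lay below the other weeks, and the glutathione S-transferases with Cyp2e1 (0.141) above them. The adipokines (-0.117) and the pancreatic enzymes (-1.73) were set apart at 8 weeks, and the genes of NADPH supply (-0.743) at 24 weeks.

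Among the genes, H2-Aa (2.23), Adgre1 (2.71) and Ifit3 (1.07) stood above their other weeks at 2 weeks, and Mccc2 (-0.392) below. Ramp2 stood above at 8 weeks (0.489), Polb below at 4 weeks (-0.435) and Dgcr6 below at 24 weeks (-0.753). H2-Aa and Adgre1 had low levels on the 3 arrays with high background. The part of that background in their 2-week values was not tested.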

How the results depend on the processing

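No probe passed the adjusted threshold for MAT, for EAT or for MAT minus EAT under any alternative run. The smallest adjusted p in MAT was 0.0608, with an ordinary paired test in place of limma's moderated one. Without the week block, that is, without pairing, 746 probes had an unadjusted p under 0.05 (275 higher, 471 lower), against 2685 with it. Of the probes detected on at least 5 arrays, 1518 had one (760 higher, 758 lower), and 847 were higher and 954 lower at all 5 weeks, 1801 in all. Leaving out 1 week gave 2525 to 3885 probes higher and 2909 to 3327 lower at all 4 remaining weeks, 5846 to 7078 in all, as fewer weeks must share a sign.

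Of 42 list medians, 35 to 41 kept their sign under each alternative. The medians that moved by more than the spread between weeks were those of NADPH supply (-0.60 over detected members), adipokines (0.075 over detected members), chemokines and receptors (0.25 with background correction, 0.12 over weeks 4, 8 and 20, and 0.12 to 0.20 with 1 week left out), brown and beige adipocyte markers (-0.014 over weeks 4, 8 and 20, -0.67 to -0.054 with 1 week left out), macrophage markers (0.21 over weeks 4, 8 and 20, 0.17 to 0.44 with 1 week left out), fatty acid oxidation (-0.042 over weeks 4, 8 and 20) and sterol uptake, sensing and export (-0.12 over weeks 4, 8 and 20). The weeks 4, 8 and 20 were set apart after seeing the data, as were the counts of 1 sign under other settings and EAT without week 2. The cause of these moves was not tested. Among the genes described, the sign of the mean changed, under the alternatives run, only for another probe of Hps3 (-0.057), Rassf4 (-0.074) and Pccb (0.053), and for Adipoq, which ran from -0.11 to 0.018 with 1 week left out.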

Other observations

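Glutathione S-transferases, which join glutathione to reactive compounds, and Cyp2e1, an ethanol- and ketone-oxidizing cytochrome, were measured as a list of 17 genes. Of these 3 were lower and none higher on HFD at an unadjusted p under 0.05, and 5 were lower and none higher at all 5 weeks, with a median difference of -0.11 in MAT and -0.28 in EAT. Gsta4, which clears an aldehyde of lipid peroxidation, had levels of 9.05, 8.31, 8.85, 8.79 and 8.94 on HFD, against 9.46, 8.57, 9.04, 9.74 and 9.78 on ND. Its mean difference was -0.53 (SE 0.13) in MAT and -0.78 in EAT, and -0.56 in MAT without 2 weeks. Of 8 markers of the mesothelium that covers the fat, 4 had a mean above 0 and 4 below, 1 was lower at an unadjusted p under 0.05 and the median was -0.02. Without 2 weeks 5 of the 8 were lower at that p and the median was -0.24. Upk3b, a urothelial and mesothelial membrane protein with the lowest mean of that list, had levels of 11.05, 10.02, 10.84, 10.46 and 10.63 on HFD, against 11.27, 9.95, 11.05, 11.38 and 11.46 on ND. The largest differences were -0.92 at 20 weeks and -0.83 at 24 weeks (mean difference -0.42, SE 0.15).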
